A study of Mus musculus with 8 samples.

Results

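The transcription factors that specify group 2 innate lymphoid cells (ILC2) were followed as 9 genes chosen by symbol, namely Gata3, Id2, Bcl11b, Gfi1, Ets1, Tcf7, Tox, Nfil3 and Maf. All 9 were found among the 10913 genes of the deposited table. The RNA came from sorted thymic ILC2 of young, untreated male mice, whose thymi had been dissociated with enzymes. It was profiled in 4 libraries of Il25 knockout mice (Il25 KO) and 4 of age-matched wild-type mice (WT). IL-25 is a cytokine that activates ILC2, and the comparison asks how the cells differ without it. The sources used here do not give the way the Il25 allele was inactivated, the sorting gate or the number of cells sorted. Il25 itself was not analysed here, so the genotype labels were not checked against it. The labels call the samples replicates without naming separate animals, so the p-values rest on the spread among these libraries, which may be technical.

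ILC2 are tissue-resident lymphocytes that make type 2 cytokines, and like other innate lymphoid cells they arise from lymphoid progenitors without a rearranged antigen receptor. In mouse, Nfil3, Tox, Tcf7 and Id2 act early in that path, and Gata3, Bcl11b and Gfi1 set and hold the ILC2 fate against other innate lymphoid fates. Most of these factors also act in developing T cells, so thymocytes carry their transcripts too.

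Expression was measured by MARS-seq, which reads transcripts at their 3′ end and counts molecules by a random tag (UMI). Libraries held 1915365 to 3250718 UMIs. Levels are given as CPM, UMIs scaled to a common library size with TMM factors. A 3′ count does not grow with transcript length, so CPM of different genes were set side by side, although capture can still differ between genes. In bulk RNA, fewer cells of a type and less RNA per cell cannot be told apart. Of the ILC2 markers, 7 of 13 were in the table, with a summed level of 404.7 to 421.7 CPM across KO libraries, against 301.5 to 418.8 CPM across WT libraries. The type 2 cytokine genes Il13 and Il4 and the costimulator gene Icos stood near the detection limit, with 36, 16 and 17 UMIs over the 4 KO libraries and 51, 9 and 20 UMIs over the 4 WT libraries. Transcripts of thymocytes and T cells were abundant, with 16 of 19 markers in the table, none of the 16 at 0 in all libraries, and summed levels of 5120 to 5612 CPM across KO libraries, against 4724 to 6200 CPM across WT libraries. The highest of them were Dntt, Lat, Lck and Cd3g, with KO means of 2316, 1143, 770.6 and 409.1 CPM, against WT means of 1941, 1172, 751.3 and 349.8 CPM. Of the 14 thymocyte and T cell markers tested, 4 log2 fold changes lay above 0 and 10 below, and 0 passed by edgeR. At an edgeR unadjusted p under 0.05 there were 6 of the 14, where 10.8% of all tested genes lay under it. The lowest adjusted p among them belonged to Cd3d, with a KO mean of 152.1 CPM against a WT mean of 251.6 CPM (log2 fold change -0.73, edgeR adjusted p = 0.0521), and to Ptcra, with a KO mean of 30.2 CPM against a WT mean of 47.8 CPM (-0.66, edgeR adjusted p = 0.0917). All KO libraries lay under all WT libraries for 3 of the 14, Cd3d, Ptcra and Cd8b1, where 2.31% of all tested genes did. For 1 of the 14, Dntt, all KO libraries lay above all WT libraries, where 2.92% of all tested genes did. Markers of NK cells and ILC1 (2 of 9 in the table) summed to 447.4 to 626.7 CPM across KO libraries, against 514.9 to 681.6 CPM across WT libraries, and those of ILC3 (8 of 11) to 254.1 to 335.3 CPM in KO libraries, against 267.1 to 303.7 CPM in WT libraries. The first sum was almost all Gzma, at a KO mean of 504.7 CPM against a WT mean of 626.2 CPM. Tmem176a and Tmem176b made up most of the second, at KO means of 69.1 and 190.9 CPM against 70.6 and 166.8 CPM in WT. Of the 6 ILC3 markers tested, 1 log2 fold change lay above 0 and 5 below, and 0 passed by edgeR. At an edgeR unadjusted p under 0.05 there were 3 of the 6 (10.8% of all tested genes). All KO libraries lay under all WT libraries for 2 (2.31% of all tested genes). Markers of dendritic cells (3 of 7) summed to 60.3 to 79.9 CPM across KO libraries, against 67.6 to 268 CPM across WT libraries, with WT replicate 1 highest. WT replicate 1 stood apart, with 356.6 CPM of the T cell coreceptor gene Cd8b1 and 78.7 CPM of Cd4. The other 3 WT libraries held 55.7 to 65.2 CPM of Cd8b1 and 0.79 to 4.42 CPM of Cd4. The part of these other transcripts in the levels below was not tested, and the fold change of each tested factor is also given without WT replicate 1.

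Promoter sequence is shown for 4 factors, namely Gata3 as the ILC2-defining factor, Id2 as the partner of E proteins, and Gfi1 and Bcl11b as the factors with the largest fold changes. The stretches were taken from 250 bases upstream of the RefSeq start in GRCm38.p6, all on the minus strand and written 5′ to 3′, and capitals mark matches to letters bound by families of the factors described here.
Gata3, chr2:9878601-9878850: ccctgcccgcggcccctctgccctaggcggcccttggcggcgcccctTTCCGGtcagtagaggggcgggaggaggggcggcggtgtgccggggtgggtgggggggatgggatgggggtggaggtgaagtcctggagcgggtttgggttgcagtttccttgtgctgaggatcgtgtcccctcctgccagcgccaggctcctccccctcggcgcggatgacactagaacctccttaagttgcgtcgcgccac
Gfi1, chr5:107725806-107725954: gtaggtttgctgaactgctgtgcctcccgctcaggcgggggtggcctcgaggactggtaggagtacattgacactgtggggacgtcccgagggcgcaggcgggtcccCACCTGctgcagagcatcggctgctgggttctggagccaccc
Id2, chr12:25096254-25096342: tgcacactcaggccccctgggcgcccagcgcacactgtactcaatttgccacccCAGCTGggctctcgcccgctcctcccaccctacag
Bcl11b, chr12:108003486-108003515: agaggccaagcaCTTTGAAgaagtgtgaga
The capitals are an ETS core in Gata3 (CCGGAA, here on the other strand as TTCCGG), an E box in Gfi1 (CACCTG) and in Id2 (CAGCTG), and a TCF word in Bcl11b (CTTTGAA). E boxes are bound by the E proteins that Id2 inhibits, and the TCF word is bound by the family of TCF-1. Both strands of the 250-base windows were searched for these words, for CTTTGAT as a second TCF word, and for the GATA word AGATAA and its variants TGATAA or AGATAG or TGATAG. The GFI1 word AAATCA and the NFIL3 words TTACGTAA or TTATGTAA were searched as well. CTTTGAT and, on its other strand, the GFI1 word share the letters TGAT with GATA words, so a stretch can hold words of several families. Of 32851 promoter windows of the same length in the table, 12% held the ETS word, 27.7% an E box and 7.48% a TCF word. No GATA, GFI1 or NFIL3 word lay in any window of these factors, against 26.5%, 12.4% and 0.931% of all windows. Of the 9 factors, 6 had an entry in the table, and windows of Tcf7 and Nfil3 also held the E box CAGCTG and a second window of Tcf7 the ETS core. The E box of Tcf7 lies in frame with an ATG just before it, in a reading frame open to the window's end. Whether that stretch is coding was not checked. By the GENCODE gene spans given below, the windows of Gata3 and Id2 lie inside their genes, and those of Gfi1 and Bcl11b partly inside. A match is a description of the letters and not a binding site. The stretch of Gfi1 and that of Id2 were shortened to leave out annotated untranslated sequence, and that of Bcl11b was kept to 30 bases around its match, which lies inside an annotated untranslated region.

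The 9 factors spanned a wide range of levels in both genotypes. Over all 8 libraries, Tcf7 averaged 586 CPM, Ets1 143.8, Id2 111.9, Gata3 65.7, Gfi1 64.8, Bcl11b 34.1, Tox 27.8, Nfil3 21.7 and Maf 2.83 CPM. Tcf7 stood 227th from the top of the table, and Maf stood below most genes, with 13.4% of genes at or under its level. Neighbours in this order were compared within libraries, as the difference of log2(CPM + 1), with an exact two-sided sign-flip permutation test adjusted over the 8 pairs. Tcf7 lay above Ets1 in 8 of 8 libraries by 2.0 ± 0.34 on the log2 scale (SD, adjusted exact permutation p = 0.0156). Id2 lay above Gata3 by 0.76 ± 0.41, Gfi1 above Bcl11b by 0.91 ± 0.22 and Nfil3 above Maf by 2.63 ± 0.51, each in 8 of 8 libraries and with the same adjusted exact p. Tox lay above Nfil3 in 7 of 8 libraries by 0.35 ± 0.22 (adjusted exact p = 0.025). Gata3 and Gfi1 did not separate, with a mean log2 ratio of 0.04 ± 0.31 and Gata3 higher in 4 of 8 libraries (adjusted exact p = 0.727). Ets1 over Id2 (0.37 ± 0.44, adjusted exact p = 0.0625) and Bcl11b over Tox (0.26 ± 0.41, adjusted exact p = 0.134) also missed the threshold, although the first of each pair was higher in 7 of 8 libraries. The smallest unadjusted p of this test is 0.00781.

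**Figure D1:**
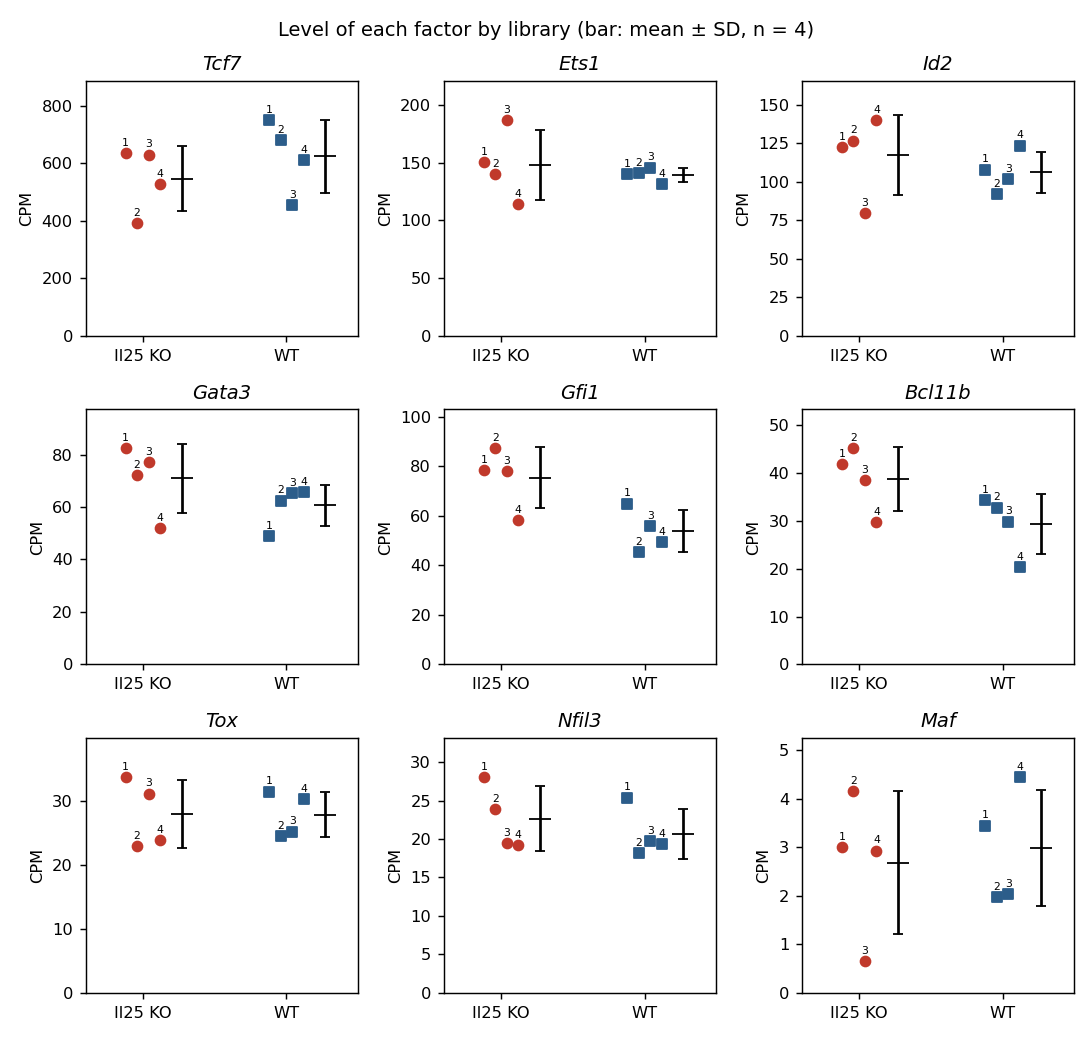
CPM of each factor (vertical axis, starting at 0) in the 4 Il25 KO libraries (red circles) and the 4 WT libraries (blue squares), numbered by replicate, with the mean and SD of each group as a black bar. The groups overlap for all 9 factors, and the panels run from Tcf7 at a mean of 586 CPM to Maf at 2.83 CPM.

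None of the factors differed between KO and WT at an adjusted p under 0.05. Of the 9, 8 passed the filter on low counts and were tested, and edgeR's quasi-likelihood test called 0 of these 8, where 0.211% of 9016 tested genes were called (0.177% higher and 0.0333% lower in KO). The same count of 0 came from DESeq2 and limma-voom. At an unadjusted p under 0.05 there were 2 of 8, Gfi1 and Bcl11b, by each of the 3 tools, where 10.8% of all genes lay under it by edgeR (5.12% higher and 5.71% lower in KO). The log2 fold change was above 0 for 7 factors and below 0 for Tcf7, with a median of 0.14, while the median of all tested genes was -0.0022 and 49.5% of them lay above 0. None of the 8 had KO and WT libraries without overlap, a pattern that 5.22% of all tested genes showed (2.92% with all KO libraries above and 2.31% with all below).

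Gata3, Bcl11b and Gfi1 shared part of their order of libraries. In all 3, KO replicates 1 to 3 lay above every WT library and KO replicate 4 did not. Among all tested genes 3.43% showed this pattern, and 8.24% had any 3 of the 4 KO libraries above all WT libraries. The pattern was noticed after the values were seen. WT libraries were not ordered alike, as WT replicate 1 was the lowest of them in Gata3 and the highest of them in Bcl11b and Gfi1.

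Gata3 encodes the zinc finger factor that ILC2 need to form and to express their cytokine and receptor genes. Its level was 82.3, 72.2, 77.0 and 51.9 CPM in KO replicates 1 to 4, against 49.0, 62.4, 65.2 and 65.7 CPM in WT replicates 1 to 4. The lowest library of each group, KO replicate 4 and WT replicate 1, lay close together, and the groups overlapped. Gata3 had a log2 fold change of 0.22 ± 0.14 (SE), with a 95% interval from -0.07 to 0.52 (edgeR adjusted p = 0.586). On the linear scale this interval runs from 0.952-fold to 1.43-fold. The log2 fold change was 0.14 without either KO replicate 1 or WT replicate 1, and 0.34 without KO replicate 4 (edgeR adjusted p = 0.845, 0.73 and 0.234).

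Gfi1 encodes a zinc finger repressor that promotes ILC2 development in mouse and restrains the ILC3-like program. It showed the largest difference of the 9, with 78.6, 87.3, 78.0 and 58.2 CPM in KO replicates 1 to 4, against 65.0, 45.4, 56.0 and 49.5 CPM in WT replicates 1 to 4. WT replicate 1 was the single WT library above KO replicate 4. The means were 75.5 ± 12.3 CPM in KO libraries and 54.0 ± 8.51 CPM in WT libraries (SD, n = 4). The log2 fold change was 0.48 ± 0.14 (SE), with a 95% interval from 0.19 to 0.78, an unadjusted p of 0.00251 and an edgeR adjusted p of 0.194. This p ranked 117th among 9016 genes. The authors' deposited table gave Gfi1 a log2 fold change of 0.48 with the sign turned to KO over WT, and an adjusted p of 0.265. Without WT replicate 1 the log2 fold change was 0.58 (edgeR adjusted p = 0.0862), and without KO replicate 4 it was 0.59 (edgeR adjusted p = 0.0789).

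Bcl11b encodes a zinc finger factor that commits T cells and, in mouse, keeps mature ILC2 from taking on ILC3 features. Its level was 41.9, 45.2, 38.5 and 29.7 CPM in KO replicates 1 to 4, against 34.4, 32.8, 29.9 and 20.3 CPM in WT replicates 1 to 4. KO replicate 4 lay under 3 of the WT libraries, and WT replicate 4 was the lowest of all 8. The log2 fold change was 0.41 ± 0.17 (SE), with a 95% interval from 0.05 to 0.77, an unadjusted p of 0.0278 and an edgeR adjusted p of 0.405. The authors' deposited table gave 0.41 with the sign turned, and an adjusted p of 0.659. Without WT replicate 4 the log2 fold change was 0.26 (edgeR adjusted p = 0.68), and without WT replicate 1 it was 0.49 (edgeR adjusted p = 0.278).

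**Figure D2:**
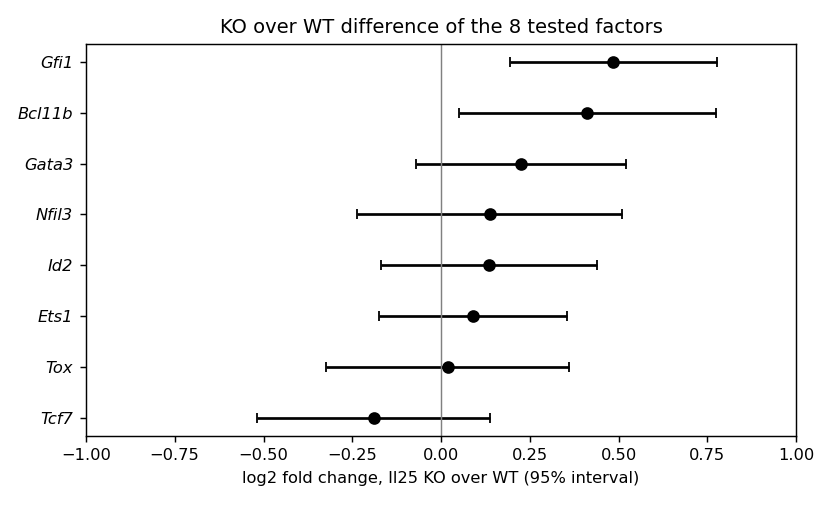
Log2 fold change of Il25 KO over WT (horizontal axis) for the 8 tested factors, with points for the edgeR estimate and bars for the 95% interval. The intervals of Gfi1 (0.19 to 0.78) and Bcl11b (0.05 to 0.77) lie above 0 before adjustment for the 9016 genes tested, and those of the other 6 include 0.

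Tcf7 encodes TCF-1, the HMG box factor of early innate lymphoid and T cell progenitors. It was the most abundant of the 9 and the only tested factor with a lower mean in KO. Its level was 635.2, 393.9, 630.8 and 528.2 CPM in KO replicates 1 to 4, against 751.5, 680.9, 455.9 and 612.7 CPM in WT replicates 1 to 4. KO replicate 2 and WT replicate 3 were low within their groups, and the groups overlapped over most of their range. The log2 fold change was -0.19 ± 0.16 (SE), with a 95% interval from -0.52 to 0.14 (edgeR adjusted p = 0.7). Without KO replicate 2 it was -0.06 and without WT replicate 1 it was -0.09 (edgeR adjusted p = 0.926 and 0.871), while without WT replicate 3 it was -0.32 (edgeR adjusted p = 0.445).

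Id2 encodes an inhibitor that binds E proteins and keeps them from DNA, which innate lymphoid cells need. Its level was 122.8, 126.8, 79.9 and 140.2 CPM in KO replicates 1 to 4, against 108.0, 92.1, 101.6 and 123.5 CPM in WT replicates 1 to 4. The lowest and the highest of all 8 libraries were both KO libraries, replicates 3 and 4. Id2 had a log2 fold change of 0.13 ± 0.15 (SE), with a 95% interval from -0.17 to 0.44 (edgeR adjusted p = 0.778). With KO replicate 3 or 4 left out it was 0.29 or 0.03, and with WT replicate 1, 2 or 4 left out it was 0.14, 0.07 or 0.22.

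Id2 was also set against its targets, the E protein genes Tcf3, Tcf4 and Tcf12. Their summed level was 274.4, 239.0, 250.5 and 223.9 CPM in KO replicates 1 to 4, against 244.3, 229.6, 210.6 and 237.9 CPM in WT replicates 1 to 4. Tcf3, which encodes E2A, held more than either of the other two in 7 of 8 libraries. Id2 stood below this sum in each library, at ratios of 0.447, 0.53, 0.319 and 0.626 in KO and 0.442, 0.401, 0.482 and 0.519 in WT. The mean log2 ratio was -1.09 ± 0.41 across KO libraries and -1.12 ± 0.16 across WT libraries (SD, n = 4), a difference of 0.02 (two-sided exact permutation p = 0.914 over 70 assignments, of which the smallest possible is 0.0286). Id3, which encodes a related inhibitor and was named after its values were seen, stood above Id2 in each library, at 379.9, 439.1, 367.7 and 529.5 CPM in KO replicates 1 to 4 and 914, 333.2, 319.6 and 402.4 CPM in WT replicates 1 to 4. Its level in WT replicate 1, the library with high Cd8b1 and Cd4, was more than any other.

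Tox and Nfil3 act in the early progenitor of innate lymphoid cells in mouse, Tox as an HMG box factor and Nfil3 as a bZIP factor. Tox stood at 33.7, 22.9, 31.1 and 23.9 CPM in KO replicates 1 to 4, against 31.4, 24.5, 25.1 and 30.2 CPM in WT replicates 1 to 4. The group means were 27.9 ± 5.33 CPM in KO libraries and 27.8 ± 3.49 CPM in WT libraries (SD, n = 4), and the log2 fold change was 0.02 ± 0.16 (SE), with a 95% interval from -0.32 to 0.36 (edgeR adjusted p = 0.984). It was below 0 without KO replicate 1, KO replicate 3, WT replicate 2 or WT replicate 3, and 0.08 without WT replicate 1. Both groups held a high and a low pair of libraries. Nfil3 stood at 28.1, 23.9, 19.4 and 19.3 CPM in KO replicates 1 to 4, against 25.4, 18.2, 19.7 and 19.4 CPM in WT replicates 1 to 4. The log2 fold change of Nfil3 was 0.14 ± 0.18 (SE), with a 95% interval from -0.24 to 0.51 (edgeR adjusted p = 0.82). Replicate 1 was the highest library of each group, and without KO replicate 1 the log2 fold change of Nfil3 was 0.01. With KO replicate 3 left out it was 0.21, and with WT replicate 1 or 2 left out it was 0.24 or 0.08.

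Ets1, an ETS family factor that supports ILC2 numbers and function in mouse, overlapped between the groups. It stood at 150.8, 140.3, 187.1 and 113.8 CPM in KO replicates 1 to 4, against 140.2, 140.7, 145.7 and 131.5 CPM in WT replicates 1 to 4. All WT values fell inside the range of the KO values. The means were 148 ± 30.3 CPM in KO libraries and 139.5 ± 5.91 CPM in WT libraries (SD, n = 4), and the log2 fold change was 0.09 ± 0.13 (SE) with a 95% interval from -0.17 to 0.35 (edgeR adjusted p = 0.837). Whether the spread differed between the groups was not tested. Without KO replicate 3 the log2 fold change was -0.05 (edgeR adjusted p = 0.942), without KO replicate 4 it was 0.20, and without WT replicate 1 it was 0.09.

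Maf encodes c-MAF, a bZIP factor that drives Il10 and other cytokine genes in T helper cells. Its counts were 8, 8, 2 and 7 UMIs in KO replicates 1 to 4, against 8, 5, 6 and 14 UMIs in WT replicates 1 to 4. With 25 UMIs in all in KO and 33 in WT it lay below the count filter and entered no test. Fitted without the filter, Maf had a log2 fold change of -0.24 ± 0.47 (SE, edgeR adjusted p = 0.902), with a 95% interval from -1.23 to 0.75, or 0.426-fold to 1.68-fold.

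The spread between replicates was larger than counting alone gives for all 9 factors. Tcf7 had the largest excess, with a coefficient of variation within groups of 20.5% where its mean count gives 2.54%. Of the 200 genes closest to it in level, 93.5% had a smaller coefficient. For Id2 the coefficient was 18.5%, above that of 92.0% of genes of like level, and for Ets1 it was 15.2%, above that of 83.5%. The spread of Ets1 came mostly from KO libraries, with an SD of 30.3 CPM there and 5.91 CPM in WT libraries. Tox and Nfil3 stood near the middle of genes of like level, at 16.2% and 17.3%, where 54.0% and 47.0% of such genes had smaller coefficients.

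**Figure D3:**
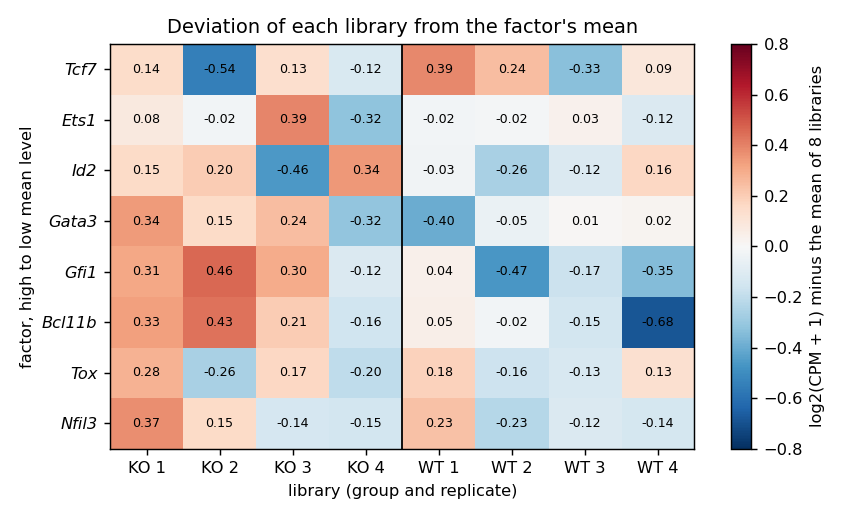
Deviation of log2(CPM + 1) in each library from the mean of all 8 (colour and printed value, red above and blue below), with the 8 tested factors in rows from high to low level and the KO libraries left of the WT libraries. Ets1 and Id2 deviate in opposite directions in KO replicates 3 and 4, and Tcf7 is low in KO replicate 2 and WT replicate 3.

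Libraries did not rank the same way for each factor. Of the 28 pairs of tested factors, none was related over the 8 libraries after adjustment. Id2 and Ets1 ran opposite, with Pearson's r = -0.801 (exact permutation p = 0.0137, adjusted p = 0.191) and Spearman's rho = -0.738 (exact permutation p = 0.0458, adjusted p = 0.428). Without the 2 libraries farthest from the median of Id2, r was -0.675, and after removing the group means it was -0.88. Bcl11b and Gfi1 ran together, with r = 0.8 (exact permutation p = 0.013, adjusted p = 0.191) and rho = 0.833 (exact permutation p = 0.0154, adjusted p = 0.428). Without the 2 libraries farthest from the median of Bcl11b, r was 0.767, and after removing the group means it was 0.648. Within KO libraries alone r of Bcl11b with Gfi1 was 0.985, and within WT libraries alone it was 0.376. Without WT replicate 2 this relation passed the adjustment (r = 0.956, adjusted exact permutation p = 0.0111). Over all fits without a library its adjusted exact permutation p ran from 0.0111 to 0.589. KO replicate 4, which was low in Gata3, Gfi1, Bcl11b and Ets1 and highest in Id2 among KO libraries, also had the lowest TMM factor, 0.949, and the highest summed level of 11 dissociation and heat shock genes, 35993 CPM. That sum was 28790 to 35993 CPM across KO libraries, against 18471 to 27400 CPM across WT libraries, so all KO libraries lay above all WT libraries. KO replicate 1 had a sum close to the highest, 35112 CPM, and was the highest of all 8 libraries in Gata3, at 82.3 CPM. Of the 11 genes 4 rose, namely Jun, Egr1, Fos and Junb (edgeR adjusted p = 0.0099, 0.0269, 0.027 and 0.0359), and 7 did not pass. Among all tested genes, 0.177% rose. For 6 of the 11 all KO libraries lay above all WT libraries, where 2.92% of all tested genes did. Most of the sum came from Hspa1a, Hspa1b and Hspa8, which did not pass (edgeR adjusted p = 0.196, 0.153 and 0.324). The part of these transcripts in the levels of the factors was not tested.

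**Figure D4:**
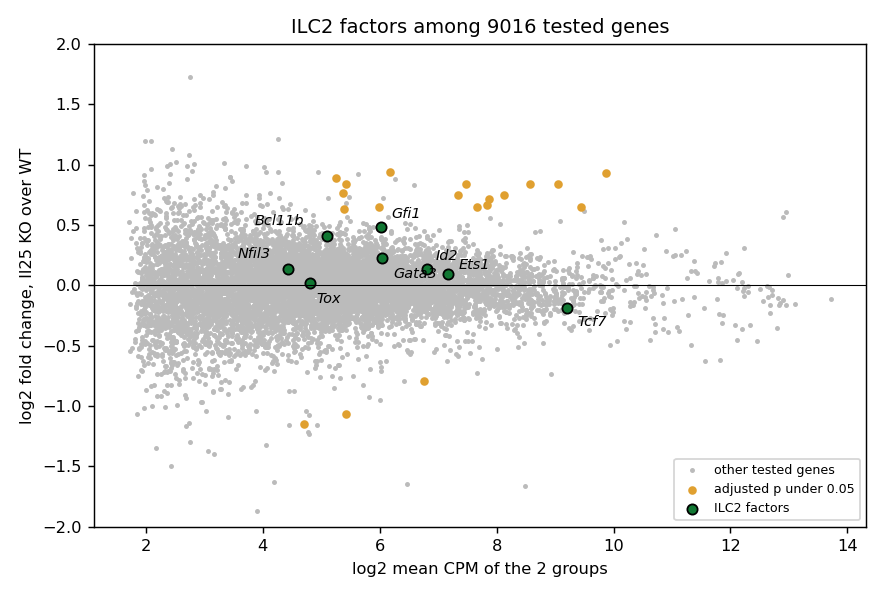
Log2 fold change of Il25 KO over WT (vertical axis) against the log2 mean CPM of both groups (horizontal axis) for 9016 tested genes, with genes at an edgeR adjusted p under 0.05 in orange and the 8 tested ILC2 factors in green. The factors lie inside the cloud of other genes, with Gfi1 at 0.48 and Bcl11b at 0.41 nearest its upper edge.

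Other transcription factors of ILC development and function gave 1 called gene. Of 36 listed, 32 were in the table and 28 were tested, of which 1 rose, 0 fell and 27 did not pass. Among all tested genes, 0.177% rose and 0.0333% fell. At an edgeR unadjusted p under 0.05 there were 6 of the 28, where 10.8% of all tested genes lay under it. The median log2 fold change was 0.16, beside -0.0022 over all tested genes. The gene that rose was Klf2, a factor that promotes egress of lymphocytes from tissue, at 759.5, 593.4, 570 and 784.3 CPM in KO replicates 1 to 4, against 531.7, 315.4, 309.4 and 357.9 CPM in WT replicates 1 to 4. No WT library reached the lowest KO library (log2 fold change 0.84 ± 0.16, SE, edgeR adjusted p = 0.027). The dissociation and heat shock sum was also higher in all KO libraries, and its part in this difference was not tested. The call was lost without KO replicate 1 (edgeR adjusted p = 0.0843), KO replicate 4 (0.0745), WT replicate 2 (0.14), WT replicate 3 (0.0831) or WT replicate 4 (0.0976). Runx2, a Runt family factor, stood at 21.4 ± 4.33 CPM in KO libraries and 11.0 ± 2.48 CPM in WT libraries (SD, n = 4). Its difference was 0.98 ± 0.21 on the log2 scale (SE, edgeR adjusted p = 0.0604). By DESeq2 its adjusted p was 0.0222, and without KO replicate 2 its edgeR adjusted p was 0.0214. Notch1, the receptor that drives T lineage choice and Tcf7 transcription, had a log2 fold change of 0.47 ± 0.12 (SE, edgeR adjusted p = 0.146, and 0.03 without KO replicate 4), and Runx3 had 0.29 ± 0.11 (SE, edgeR adjusted p = 0.324). In 5 of the 28 genes all KO libraries lay above all WT libraries, where 2.92% of all tested genes did. These were Klf2, Runx2, Notch1, Runx3 and Nfkb1, the last named after its values were seen.

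Factors that mark other lineages were low or did not pass. Of 19 listed, 13 were in the table and 8 were tested, of which 0 rose and 0 fell by edgeR. DESeq2 and limma-voom also called 0. At an edgeR unadjusted p under 0.05 there were 3 of the 8, where 10.8% of all tested genes lay under it. The median log2 fold change was -0.01. Ahr, a ligand-activated factor that supports ILC3, stood at 13.1 ± 2.94 CPM in KO libraries and 19.1 ± 3.93 CPM in WT libraries (SD, n = 4), with a log2 fold change of -0.56 ± 0.21 (SE, edgeR adjusted p = 0.324) and no overlap between the groups. Hhex, a homeobox factor, had 0.38 ± 0.11 (SE, edgeR adjusted p = 0.218), also with no overlap, and Cebpb had 0.22 ± 0.13 (SE, edgeR adjusted p = 0.553), which was 0.12 without WT replicate 3 and 0.14 without KO replicate 1. Ahr and Hhex were the 2 of the 8 without overlap, a pattern that 5.22% of all tested genes showed. Tbx21, which defines ILC1, was at 15 UMIs in all 4 KO libraries together and 10 in the 4 WT libraries and was not tested.

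Genes known to depend on Gata3 in ILC2 were tested in 5 of 19 cases, since 9 were in the table and 4 of those lay below the filter. None rose or fell by edgeR, DESeq2 or limma-voom. At an edgeR unadjusted p under 0.05 there was 1 of the 5, where 10.8% of all tested genes lay under it. All 5 log2 fold changes were above 0, with a median of 0.20, where 49.5% of all tested genes lay above 0. Areg, which encodes amphiregulin, had 0.72 ± 0.22 (SE, edgeR adjusted p = 0.218), and Il17rb, the gene of the receptor subunit that binds IL-25, had 0.20 ± 0.10 (SE, edgeR adjusted p = 0.46). In Areg and Il17rb, 2 of the 5, all KO libraries lay above all WT libraries, where 2.92% of all tested genes did. For Areg the gap was narrow, with 33.0 CPM in KO replicate 3 and 32.6 CPM in WT replicate 3. Over the fits without a library, the log2 fold change of Areg ran from 0.48 (without KO replicate 1) to 0.85 (without WT replicate 4). Il7r and Il2ra, which encode cytokine receptor chains, had 0.22 ± 0.13 and 0.06 ± 0.15 (SE, edgeR adjusted p = 0.565 and 0.926).

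Partners and regulators of the 9 factors gave no call. Of 22 listed, 21 were in the table and 20 were tested, of which 0 rose and 0 fell by edgeR, DESeq2 or limma-voom. At an edgeR unadjusted p under 0.05 there were 3 of the 20, where 10.8% of all tested genes lay under it. The median log2 fold change was 0.06. Kdm1a, which encodes the histone demethylase LSD1 that Gfi1 recruits, had a log2 fold change of 0.43 ± 0.15 (SE, edgeR adjusted p = 0.293), which was 0.27 without KO replicate 3. Lmo4, a LIM domain adaptor, had -0.26 ± 0.11, Fbxw7, a ubiquitin ligase subunit, had 0.44 ± 0.20, and Cbfb, the partner of Runx factors, had 0.19 ± 0.11 (SE, edgeR adjusted p = 0.406, 0.429 and 0.543). The KO and WT libraries overlapped for all 20, where 5.22% of all tested genes showed no overlap.

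By the GENCODE M21 annotation of GRCm38 (mm10), Gata3 lies on chromosome 2 from 9857078 to 9890034, Gfi1 on chromosome 5 from 107716657 to 107726036, Bcl11b on chromosome 12 from 107910403 to 108003602, Id2 on chromosome 12 from 25093799 to 25097140 and Tcf7 on chromosome 11 from 52252371 to 52283014. Exons of Gata3, Gfi1, Tox and Maf overlap a gene annotated on the opposite strand, and Gata3 also overlaps 9230102O04Rik on its own strand. The sources used here do not say whether counting used strand, so reads of these overlapping genes cannot be told apart. None of the overlapping genes had a row in the table.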

How the data were processed

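MARS-seq libraries of poly(A) RNA from sorted thymic ILC2 numbered 4 for Il25 KO and 4 for WT, per the labels' protocols. STAR 2.5.2b, HTSeq, DESeq2, cutadapt, bcl2fastq and the mm10 build are named, without roles or settings, in the submitters' processing notes. The authors' raw columns hold UMI counts per gene, and each test used these counts. The deposited normalized signal values equalled the raw counts divided by a constant per library. The deposited regularized log2 values were not used. The deposited log2 fold changes are WT over KO and came with a p-value and an adjusted p-value. The authors' comparison columns are quoted only where named.

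The tests ran in edgeR 4.0.16 under R 4.3.3. Its filterByExpr (minimum count 10) kept 9016 of 10913 genes, and TMM factors ran from 0.949 to 1.058. A quasi-likelihood model with group as its only term was fitted to all 8 libraries, with Benjamini-Hochberg adjustment and a threshold of 0.05. SE and 95% intervals come from its F statistic. Ratios used a pseudocount of 1 CPM. No pair of libraries agreed within sampling noise (chi-square per degree of freedom of 2.95 or more). The fit was tested on simulated data, with 100 genes changed 1.5-fold and 100 changed 2-fold. There, 43.4% of 1.5-fold and 89.8% of 2-fold changes among genes passing the filter were called. The simulation gave 136 calls and the data gave 19. A call in the data therefore needed a lower unadjusted p, and these shares may be too high for the data.

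Same-numbered KO and WT libraries were not taken as pairs. Alternatives covered scaling, the filter, DESeq2 1.42.0, limma-voom (limma 3.58.1), a replicate block and leaving out each library. The members and lists were chosen with earlier results of these data known. Genes named are the 9 members, called list members, up to 4 list members with the lowest p, Tcf3, Tcf4 and Tcf12, and the 4 most abundant thymocyte and T cell markers. Id3, Cd8b1, Cd4, Cd3d, Ptcra, Gzma, Tmem176a, Tmem176b, Jun, Egr1, Fos, Junb, Hspa1a, Hspa1b, Hspa8, Nfkb1, Tbx21, Il13, Il4 and Icos were named after their values were seen. Some genes of the lists, such as Rora and Il1rl1, were not analysed here. The values of 1 list gene that the naming rule selects are not reported here.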

Additional observations from a re-analysis of the deposited data

How the results depend on the processing

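In all 6 other settings and all 8 fits without a library, 0 of the 8 tested factors were called. Their fold changes kept their direction in the 6 other settings. Scaling by library size alone gave a median log2 fold change of all genes of 0.027, beside -0.0022 with TMM. The count of genes called was 49 by DESeq2 (31 higher, 18 lower) and 60 with the replicate block (32 higher, 28 lower), beside 19 by edgeR without a block (16 higher, 3 lower), and it ran from 1 (without WT replicate 2) to 39 (without KO replicate 2) with a library left out (1 to 27 higher, 0 to 12 lower). The cause was not tested. The correlation of deviations between same-numbered KO and WT libraries was 0.139, -0.00549, -0.000291 and 0.0899, and with the block the log2 fold changes of Gfi1 and Bcl11b were 0.47 and 0.41 (edgeR adjusted p = 0.123 and 0.222). The called members of the list of other ILC factors numbered 2 by DESeq2, and 0 to 2 without a library.

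Over the fits without a library, the log2 fold change of Gata3 ran from 0.14 to 0.34, Gfi1 from 0.41 to 0.59, Bcl11b from 0.26 to 0.52, Id2 from 0.03 to 0.29, Nfil3 from 0.01 to 0.24, Tcf7 from -0.32 to -0.06, Ets1 from -0.047 to 0.20 and Tox from -0.083 to 0.10. Il2ra ran from -0.071 to 0.23. The difference in the Id2 ratio ran from -0.12 to 0.20. The ratios of Gata3 over Gfi1, Ets1 over Id2, Bcl11b over Tox and Tox over Nfil3 ran from -0.024 to 0.10, 0.25 to 0.46, 0.16 to 0.38 and 0.31 to 0.41. Ets1 over Id2 passed without KO replicate 4 and Bcl11b over Tox without WT replicate 4 (adjusted exact permutation p = 0.025 each). Tox over Nfil3 had an adjusted exact permutation p of 0.05 without KO replicate 1 or 3 or WT replicate 1, 2 or 3, where fewer sign flips exist. With library size alone, r was -0.653 for Id2 with Ets1 and 0.831 for Bcl11b with Gfi1. Without a library it ran from -0.889 to -0.572 and from 0.733 to 0.956. Settings for the lists and correlations were chosen after seeing the data.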
